A study of Mus musculus with 4 samples.

Results

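The 9 genes described here encode the ligands and receptors of the VEGF and angiopoietin systems. They are the ligands *Vegfa*, *Angpt1* and *Angpt2*, the receptor tyrosine kinases *Kdr*, *Flt1*, *Tek* and *Tie1*, and the co-receptors *Nrp1* and *Nrp2*. They were chosen by gene symbol, by a rule that uses no measured value but was written with earlier results of these data known, from the 45706 genes of a count table of mouse lung RNA. All 9 were counted often enough to be tested, as were 18763 genes in all (mean count of 5 or more per lung). The RNA came from left lung lobes of untreated C57BL/6 embryos at embryonic day 17 (E17), 2 of them wild type (*Myh10*+/+) and 2 homozygous for the chemically induced L458R missense allele (*Myh10*L458R/L458R, called *Myh10*-/- in the study and here). *Myh10* encodes the heavy chain of non-muscle myosin II-B. The allele is carried by every cell of the mutant embryo, and each library is a whole lobe, so each value is a sum over endothelium, epithelium, mesenchyme and blood. A lower value can stem from fewer cells of a type or from less RNA per cell, and these cannot be told apart in whole lobes. By staining for marker proteins, the study found the numbers of endothelial cells and pericyte-like cells unchanged in mutant lungs. It found Vimentin-positive fibroblasts strongly decreased in number. Cell numbers were not measured in the lobes used here.

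VEGF-A, the product of *Vegfa*, is secreted by the distal lung epithelium and other cells and drives endothelial growth, survival and sprouting. KDR (VEGFR2) carries most of its signal in endothelial cells, FLT1 (VEGFR1) binds it more tightly and largely acts as a sink, and the neuropilins NRP1 and NRP2 present it to KDR while also binding class 3 semaphorins. Angiopoietin-1, made by mesenchymal and mural cells, activates the endothelial receptor TEK (TIE2) and stabilizes vessels, angiopoietin-2 from endothelial cells acts as a context-dependent antagonist, and TIE1 modulates TEK without a classical ligand of its own. In the saccular lung these systems build the capillary bed that comes to lie against the alveolar type 1 cells.

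The promoters of the 4 receptors and of *Vegfa* are shown because the receptor RNAs are largely made by one cell type while *Vegfa* is not. RefSeq sequences on GRCm38.p6 were given for 7 of the 9 genes, and the 250 bases before the RefSeq transcript start are printed 5′ to 3′ along the gene's strand. For *Tie1* this start differs from the GENCODE gene bounds (118471191 to 118490061), and most of its window lies inside them. For the receptors, capitals mark GGAA or its reverse complement TTCC, the core recognized by ETS factors, a family with endothelial members. For *Vegfa*, capitals mark the GC box GGGCGG on the printed strand or, on the other strand, CCGCCC.
*Kdr*, chr5:75978456-75978705, minus strand: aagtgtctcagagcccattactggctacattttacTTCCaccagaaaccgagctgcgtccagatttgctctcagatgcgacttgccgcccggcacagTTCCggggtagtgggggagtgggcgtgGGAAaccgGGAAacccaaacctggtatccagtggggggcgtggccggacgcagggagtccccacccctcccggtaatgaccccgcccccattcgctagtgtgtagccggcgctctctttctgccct
*Flt1*, chr5:147726012-147726261, minus strand: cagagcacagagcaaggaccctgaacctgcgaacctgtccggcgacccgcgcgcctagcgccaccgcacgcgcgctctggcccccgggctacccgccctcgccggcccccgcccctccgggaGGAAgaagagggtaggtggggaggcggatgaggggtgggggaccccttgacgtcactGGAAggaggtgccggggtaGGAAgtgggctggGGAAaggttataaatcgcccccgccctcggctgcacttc
*Tek*, chr4:94739039-94739288, plus strand: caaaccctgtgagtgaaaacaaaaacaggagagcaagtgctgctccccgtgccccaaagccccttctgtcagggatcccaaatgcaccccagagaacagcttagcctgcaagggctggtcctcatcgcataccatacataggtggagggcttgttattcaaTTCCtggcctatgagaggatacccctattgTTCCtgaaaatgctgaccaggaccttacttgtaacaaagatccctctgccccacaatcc
*Tie1*, chr4:118489850-118490099, minus strand: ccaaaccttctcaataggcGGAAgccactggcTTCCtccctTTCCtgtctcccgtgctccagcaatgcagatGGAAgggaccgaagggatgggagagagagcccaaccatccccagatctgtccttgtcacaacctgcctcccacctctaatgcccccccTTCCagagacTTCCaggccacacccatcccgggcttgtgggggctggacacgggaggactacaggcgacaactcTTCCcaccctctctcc
*Vegfa*, chr17:46032378-46032627, minus strand: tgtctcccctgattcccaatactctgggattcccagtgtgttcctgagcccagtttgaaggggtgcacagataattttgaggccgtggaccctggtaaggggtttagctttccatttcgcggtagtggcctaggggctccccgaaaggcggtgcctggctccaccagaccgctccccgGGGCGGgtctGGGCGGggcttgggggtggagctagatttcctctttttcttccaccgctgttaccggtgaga

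The ETS core occurred 4 times in the *Kdr* window, 4 times in *Flt1*, 2 times in *Tek* and 7 times in *Tie1*. Such a short motif is common, since 93.4% of 32851 promoter windows of the same length held it, with a median of 3 matches. As many matches as in *Kdr* or *Flt1* were found in 33.4% of the windows and as many as in *Tek* in 76.8%, whereas as many as in *Tie1* were found in 3.82%. The *Tie1* window lies mostly inside the GENCODE gene, so its count is not one of bases upstream of that gene start. The *Vegfa* window held the ETS core 6 times, a count reached by 8.69% of windows, so high counts were not limited to the receptors. The longer form CCGGAAGT, which contains the core, was found in 2.88% of windows and in none of these 5. The GC box occurred 2 times in *Vegfa* and 2 times in *Kdr*, and 16.7% of windows had as many, while *Flt1* held it 3 times, as many as 8.47% of windows, and *Tek* and *Tie1* did not hold it. The hypoxia response core ACGTG, present in 16.6% of windows on either strand, was not in any of the 5 printed, and TATAAA, present in 12.4%, was found in *Flt1* alone among them. A second RefSeq window of *Vegfa*, chr17:46025164-46025413, was not printed and held ACGTG 1 time. No GENCODE transcript of *Vegfa* matched the bases that follow that window. These matches describe the letters only.

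The 4 libraries held between 19116971 and 32055306 counts on genes. *Myh10* itself had 505.3 and 504.2 CPM (the usual depth-scaled count, taken on the TMM-scaled library total) in the *Myh10*+/+ lungs and 539.5 and 513.1 CPM in the *Myh10*-/- lungs (adjusted p = 0.662), and a missense allele need not lower its RNA, so the labels were not checked by its level. Sex-linked *Xist* was at 3916 and 4457 CPM in *Myh10*+/+ lung 1 and *Myh10*-/- lung 2, and at 1.84 and 4.10 CPM in the other two, so each genotype held 1 lung of either kind. The lung markers *Nkx2-1* (434 to 454.6 CPM over the 4 lungs) and *Sftpc* (3876 to 5815 CPM) were high in each library. A single value compared between 2 and 2 lungs cannot go below an exact permutation p of 0.333, so all tests below come from a model fitted across the 18763 genes (edgeR's quasi-likelihood test, Benjamini-Hochberg adjustment), and a gene is said to pass at an adjusted p-value under 0.05.

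The order of the 9 levels was the same in each of the 4 lungs. Expressed per length, as CPM per kb of exon, *Vegfa* was at 145.9 and 139.2 in *Myh10*+/+ and at 122.2 and 131.2 in *Myh10*-/- lungs, higher than 99% of tested genes by its *Myh10*+/+ mean. *Tie1* followed at 43.4 to 51.4 CPM per kb over the 4 lungs, with *Nrp1* at 27.3 to 30.6, *Kdr* at 25.4 to 28.3 and *Tek* at 24.6 to 25.9. The ranges of *Nrp1* and *Kdr* overlapped, as did those of *Kdr* and *Tek*, so these neighbours were not separated beyond the spread between lungs. *Angpt1* was at 13.4 to 16.9 CPM per kb, *Nrp2* at 10.02 to 11.8, *Flt1* at 5.58 to 6.28 and *Angpt2* at 4.02 to 4.72, and no 2 of these ranges overlapped. *Angpt2* lay above 48.1% of tested genes and was the only one of the 9 in the lower part of the distribution.

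**Figure D1:**
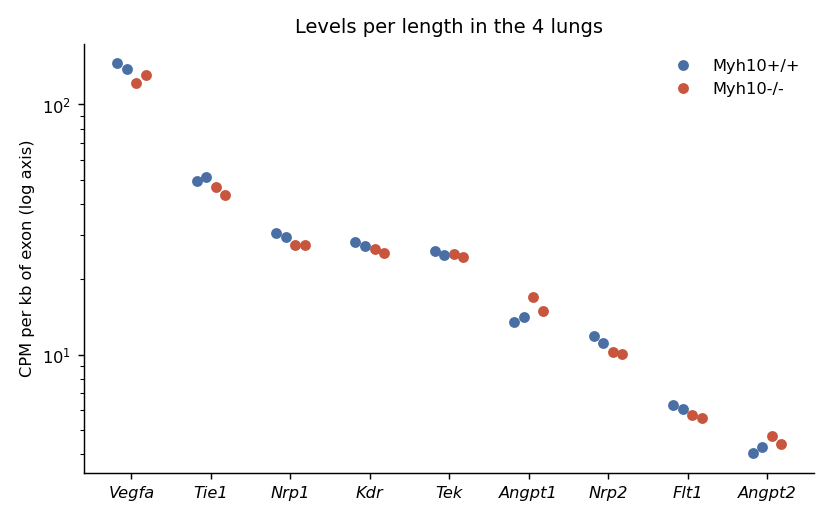
Level of each of the 9 genes in CPM per kb of exon (logarithmic axis) in the 2 Myh10+/+ lungs (blue points) and the 2 Myh10-/- lungs (red points), ordered by the Myh10+/+ mean. The order from Vegfa (142.6 CPM per kb in Myh10+/+) down to Angpt2 (4.14) was the same in every lung, and the steps between genes were mostly larger than those between genotypes.

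Among the ligands, *Vegfa* was lower and both angiopoietins were higher in each *Myh10*-/- lung than in either *Myh10*+/+ lung, and none of these differences passed the test. *Vegfa* (ENSMUSG00000023951, chr17:46016993-46032369, minus strand, GRCm38) had 625.2 and 596.6 CPM in *Myh10*+/+ lungs and 523.8 and 562 CPM in *Myh10*-/- lungs. The groups did not overlap, and *Myh10*-/- lung 1 was the lowest. The log2 fold change was -0.17 (SE 0.067, 95% interval -0.32 to -0.03, adjusted p = 0.223), which is a difference of -11.1% with bounds at -19.6% and -1.74%. Without *Myh10*-/- lung 2 it was -0.22 and without *Myh10*-/- lung 1 it was -0.12, so its size depends on which of these lungs is used. The counts sum over the splice forms of *Vegfa*, whose products differ in how tightly they are held by the matrix, so a change in their proportions would not be seen.

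*Angpt1*, the activating ligand of TEK (ENSMUSG00000022309, chr15:42424723-42676977, minus strand), had 69.9 and 73.6 CPM in *Myh10*+/+ lungs and 88.1 and 77.5 CPM in *Myh10*-/- lungs. *Myh10*-/- lung 1 stood clearly above the others and lung 2 only slightly. The log2 fold change was 0.21 (SE 0.074, 95% interval 0.04 to 0.37, adjusted p = 0.186), or 15.4% with bounds at 3.13% and 29.1%. It was 0.30 without *Myh10*-/- lung 2 and 0.11 without *Myh10*-/- lung 1, so the size of the difference depends on which of these lungs is used. The antisense gene *Gm17473* overlaps 737 of the 5205 exon bases of *Angpt1*, and because the counting may not have used strand, reads in that stretch may have been left out.

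*Angpt2* (ENSMUSG00000031465, chr8:18690263-18741562, minus strand), the ligand with the lowest level, had 14.8 and 15.7 CPM in *Myh10*+/+ lungs and 17.4 and 16.2 CPM in *Myh10*-/- lungs. The groups were apart by less than the distance between the lungs of either genotype. Its log2 fold change was 0.14 (SE 0.087, 95% interval -0.05 to 0.32, adjusted p = 0.468). The gene lies within the bounds of *Mcph1*, with no shared exon bases. The ratio of *Angpt2* to *Angpt1*, per length, was 0.299 and 0.301 in *Myh10*+/+ and 0.279 and 0.294 in *Myh10*-/- lungs, slightly lower in both *Myh10*-/- lungs with no overlap (-0.07 on the log2 scale), and was not tested.

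**Figure D2:**
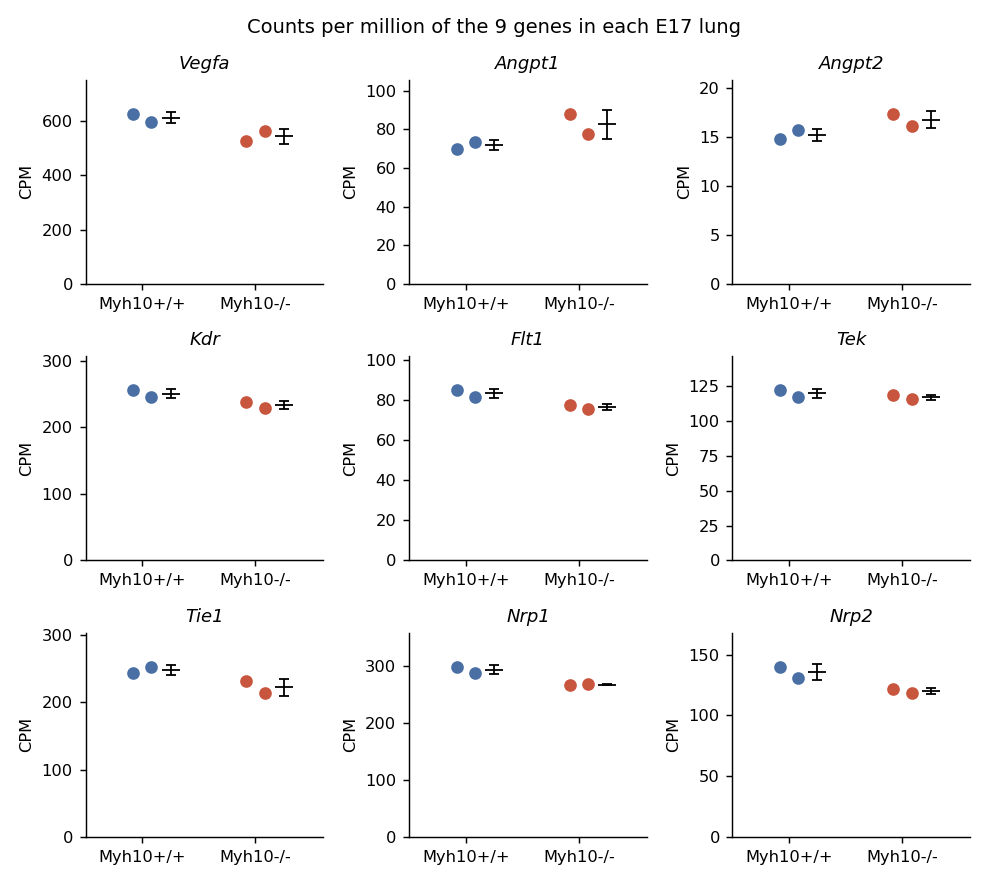
CPM of each of the 9 genes in each lung (points, blue for Myh10+/+ and red for Myh10-/-), with the mean and SD of each genotype (black, n = 2), on axes that start at 0. Vegfa, Kdr, Flt1, Tie1, Nrp1 and Nrp2 were lower in both Myh10-/- lungs than in both Myh10+/+ lungs, Angpt1 and Angpt2 were higher, and Tek overlapped.

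All 4 receptor tyrosine kinases had fold changes below 0, between -0.03 and -0.16 on the log2 scale, and none passed the test. *Kdr* (ENSMUSG00000062960, chr5:75932827-75978458, minus strand), the main signalling receptor for VEGF-A, had 255.5 and 245.4 CPM in *Myh10*+/+ and 237.7 and 229 CPM in *Myh10*-/- lungs. Its log2 fold change was -0.10 (SE 0.047, 95% interval -0.20 to -0.00055, adjusted p = 0.299). *Flt1* (ENSMUSG00000029648, chr5:147561604-147726011, minus strand), the receptor that mainly binds and holds VEGF-A, had 84.9 and 81.7 CPM against 77.7 and 75.4 CPM, a log2 fold change of -0.12 (SE 0.062, 95% interval -0.26 to 0.01, adjusted p = 0.349). The groups did not overlap for either gene, and both differences were small. The counts of *Flt1* do not separate its membrane-bound and soluble forms.

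The ratio of *Kdr* to *Flt1*, per length, was 4.50 and 4.49 in *Myh10*+/+ and 4.58 and 4.54 in *Myh10*-/- lungs. It was slightly higher in both *Myh10*-/- lungs, with no overlap, by 0.02 on the log2 scale, and was not tested. The ratio of *Vegfa* to *Kdr*, chosen after the values were seen, was 5.16 and 5.12 in *Myh10*+/+ and 4.64 and 5.17 in *Myh10*-/- lungs, and the groups overlapped.

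*Tek* (ENSMUSG00000006386, chr4:94739289-94874976, plus strand), the angiopoietin receptor TIE2, was the member with the smallest difference. It had 122.2 and 117.6 CPM in *Myh10*+/+ and 118.5 and 115.7 CPM in *Myh10*-/- lungs, and the groups overlapped. The log2 fold change was -0.03 (SE 0.052, adjusted p = 0.797), and its 95% interval of -0.15 to 0.08 is the range of changes these lungs allow for. *Tie1* (ENSMUSG00000033191, chr4:118471191-118490061, minus strand), the partner of TEK, had 242.9 and 252.7 CPM in *Myh10*+/+ and 230.8 and 213.2 CPM in *Myh10*-/- lungs, with *Myh10*-/- lung 2 the lowest. Its log2 fold change was -0.16 (SE 0.051, 95% interval -0.27 to -0.05, adjusted p = 0.144). Without *Myh10*-/- lung 1 it was -0.21 and without *Myh10*-/- lung 2 it was -0.10. The ratio of *Tek* to *Tie1*, per length, was 0.525 and 0.486 in *Myh10*+/+ and 0.536 and 0.566 in *Myh10*-/- lungs, higher in both mutant lungs, with a gap no larger than the spread between the lungs of a genotype.

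Both co-receptors were lower in each *Myh10*-/- lung. *Nrp1* (ENSMUSG00000025810, chr8:128358604-128503363, plus strand), which enhances VEGF-A binding to KDR, had 299.2 and 288.3 CPM in *Myh10*+/+ and 267.3 and 268 CPM in *Myh10*-/- lungs. Its log2 fold change was -0.13 (SE 0.047, 95% interval -0.24 to -0.03, adjusted p = 0.174). *Nrp2* (ENSMUSG00000025969, chr1:62703285-62818695, plus strand), the co-receptor of veins and lymphatics, had 140.1 and 131 CPM against 121.6 and 118.6 CPM, a log2 fold change of -0.18 (SE 0.054, 95% interval -0.29 to -0.06, adjusted p = 0.127). *Nrp2* had the lowest p-value of the 9 genes and did not pass. The ratio of *Nrp1* to *Nrp2*, per length, lay between 2.59 and 2.73 in the 4 lungs, with overlap between genotypes.

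Of the 9 genes, 0 passed with edgeR and 0 with DESeq2's Wald test, while 1.64% of all tested genes passed with edgeR. At an unadjusted p under 0.05, 6 of the 9 were counted with edgeR, 5 lower and 1 higher (*Angpt1*), and 5 with DESeq2. Over all tested genes, edgeR's share at that level was 16.5%, with 9.02% lower and 7.52% higher, and DESeq2's was 9.52%. The genotypes did not overlap for 8 of the 9 genes, 6 lower and 2 higher, against 48.3% of all tested genes, of which 24.3% were lower and 23.9% higher. The median log2 fold change of the 9 was -0.12 and that of all tested genes 0.0018. Between 31% (for *Angpt1*) and 83.4% (for *Tek*) of tested genes had a larger absolute fold change, a share that includes genes with far fewer counts. By edgeR's p-value the 9 ranked between 972 (*Nrp2*) and 12305 (*Tek*) of the 18763 tested genes. The 9 genes were not independent of each other, because most of them are expressed in the same endothelial cells.

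**Figure D3:**
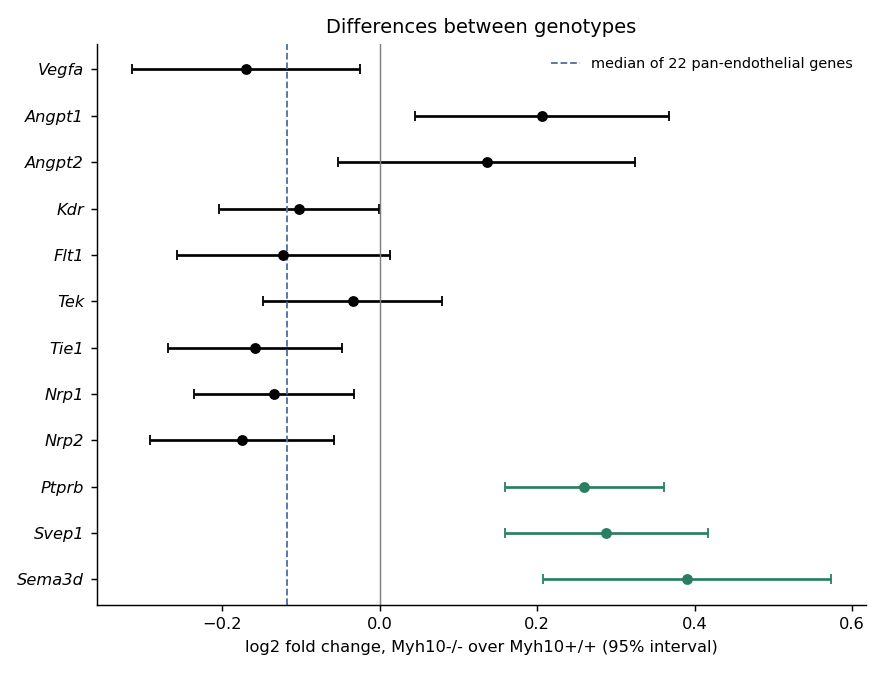
Log2 fold change of Myh10-/- over Myh10+/+ lungs with its 95% interval (edgeR) for the 9 genes (black) and for Ptprb, Svep1 and Sema3d (green), the genes of the wider pathway that passed an adjusted p of 0.05. The dashed line is the median of 22 pan-endothelial genes (-0.12), and the intervals of Vegfa and of all receptors and co-receptors span it, while the intervals of Angpt1 and of the green genes lie above 0.

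Endothelial marker genes were examined next to the receptors. Of 22 pan-endothelial genes, 18 had a fold change below 0 (49.5% of all tested genes did), with a median of -0.12, and 1 passed as lower. This was *Cldn5*, the claudin of endothelial tight junctions, with 115.7 and 122.8 CPM in *Myh10*+/+ and 87.4 and 101.5 CPM in *Myh10*-/- lungs (log2 fold change -0.34, SE 0.071, adjusted p = 0.0379, and 0.104 without *Myh10*+/+ lung 2). *Pecam1*, the first marker of the list, differed by -0.15 (adjusted p = 0.157). The summed level of the 22 genes was 3327 and 3294 CPM in *Myh10*+/+ and 3048 and 3063 CPM in *Myh10*-/- lungs. DESeq2 gave 2 lower (*Cldn5* and *Icam2*) and 1 higher (*Adgrl4*) of the 22.

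The level of each gene was also taken relative to the mean log2 level of those 22 genes in the same lung, a mean that itself differed by -0.10 between *Myh10*-/- and *Myh10*+/+ lungs. On this relative scale the genotypes differed by -0.0016 for *Kdr*, -0.02 for *Flt1*, -0.06 for *Tie1*, -0.03 for *Nrp1*, -0.07 for *Nrp2* and -0.07 for *Vegfa*, and they overlapped for each of these genes. *Tek* was 0.07 higher with no overlap. *Angpt1* was 0.30 and *Angpt2* 0.24 higher, again with no overlap. Relative to the endothelial markers, the genotypes thus overlapped for the receptors and co-receptors other than *Tek*, while both angiopoietins were above their *Myh10*+/+ values. How many of all tested genes overlap on this scale was not counted. On the plain scale 48.3% of tested genes did not overlap. No test was run on these relative values.

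The wider pathway was described by 61 further tested genes in 5 lists, of which 3 passed, all of them higher in *Myh10*-/- lungs. This is 4.92% of the 61, against 1.64% of all tested genes that passed in either direction, 0.298% as higher and 1.34% as lower. *Ptprb* encodes VE-PTP, the endothelial phosphatase that removes phosphate from TEK and restrains it. It had 210.2 and 201.6 CPM in *Myh10*+/+ and 250.2 and 243.1 CPM in *Myh10*-/- lungs, a rise in every mutant lung (log2 fold change 0.26, SE 0.046, adjusted p = 0.0196). *Svep1*, a large matrix protein that binds TIE1, rose from 129.3 and 119.5 CPM to 158.5 and 145.4 CPM (log2 fold change 0.29, SE 0.059, adjusted p = 0.0343). The antisense gene *Gm26889* overlaps 2244 of the 16117 exon bases of *Svep1*, so its count is uncertain in the same way as that of *Angpt1*.

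*Sema3d*, a secreted class 3 semaphorin of the family that binds neuropilins, rose from 26.6 and 27.1 CPM to 37.7 and 32.7 CPM (log2 fold change 0.39, SE 0.084, adjusted p = 0.0406). All 3 genes passed in each of 11 fits that used the 4 lungs. Without *Myh10*+/+ lung 2 none of them passed, with adjusted p-values of 0.203 for *Ptprb*, 0.218 for *Svep1* and 0.151 for *Sema3d*, and *Sema3d* did not pass without *Myh10*-/- lung 1 either (0.227). The per-length ratio of *Ptprb* to *Tek*, chosen after the values were seen, was 0.608 and 0.606 in *Myh10*+/+ and 0.746 and 0.742 in *Myh10*-/- lungs. This ratio was higher in both mutant lungs, by more than the spread within a genotype. It restates the rise of *Ptprb* beside the small difference of *Tek*, and was not tested.

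Of the list of 6 other angiopoietin-Tie genes, 2 passed (*Ptprb* and *Svep1*). The 13 neuropilin partners, which are semaphorins, plexins and the adaptor *Gipc1*, had 1 that passed (*Sema3d*) and a median of -0.02. The 5 other VEGF ligands and receptors had 0 that passed with edgeR or, among the 3 with an adjusted p there, with DESeq2, and 1 at an unadjusted p under 0.05 with edgeR. That one was *Vegfd*, a ligand of the lymphatic receptor, with 147 and 138.2 CPM in *Myh10*+/+ and 155.1 and 159.6 CPM in *Myh10*-/- lungs (log2 fold change 0.14, SE 0.052, adjusted p = 0.191). *Vegfb*, a ligand of FLT1, differed by -0.09 (SE 0.078, adjusted p = 0.617).

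The 21 genes for transducers of the VEGF signal had 0 that passed with edgeR or, among the 19 with an adjusted p there, with DESeq2, and 3 at an unadjusted p under 0.05 with edgeR, all lower. Of these 21, 18 had a fold change below 0, the median was -0.07, and the lowest p-values were those of *Pik3r1*, a regulatory subunit of PI3-kinase (-0.17, adjusted p = 0.166), and *Ppp3ca*, a catalytic subunit of calcineurin (-0.15, adjusted p = 0.196). Over all tested genes, 49.5% had a fold change below 0 and 9.02% were lower at an unadjusted p under 0.05.

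The 16 genes known to respond to VEGF in endothelial cells had 0 that passed with edgeR or, among the 11 with an adjusted p there, with DESeq2. At an unadjusted p under 0.05 with edgeR there were 7, of which 6 were lower and 1 higher. The shares over all tested genes were 9.02% lower and 7.52% higher. The median of the 16 was -0.17, lower than that of the 9 ligands and receptors, and 12 of the 16 were below 0. *Pdgfb*, the endothelial signal that recruits pericytes, had 73.0 and 77.9 CPM in *Myh10*+/+ and 60.0 and 67.0 CPM in *Myh10*-/- lungs (log2 fold change -0.25, SE 0.076, adjusted p = 0.125). *Cxcr4*, a chemokine receptor, had 46.5 and 47.2 CPM against 35.9 and 42.3 CPM (-0.26, SE 0.088, adjusted p = 0.166).

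**Figure D4:**
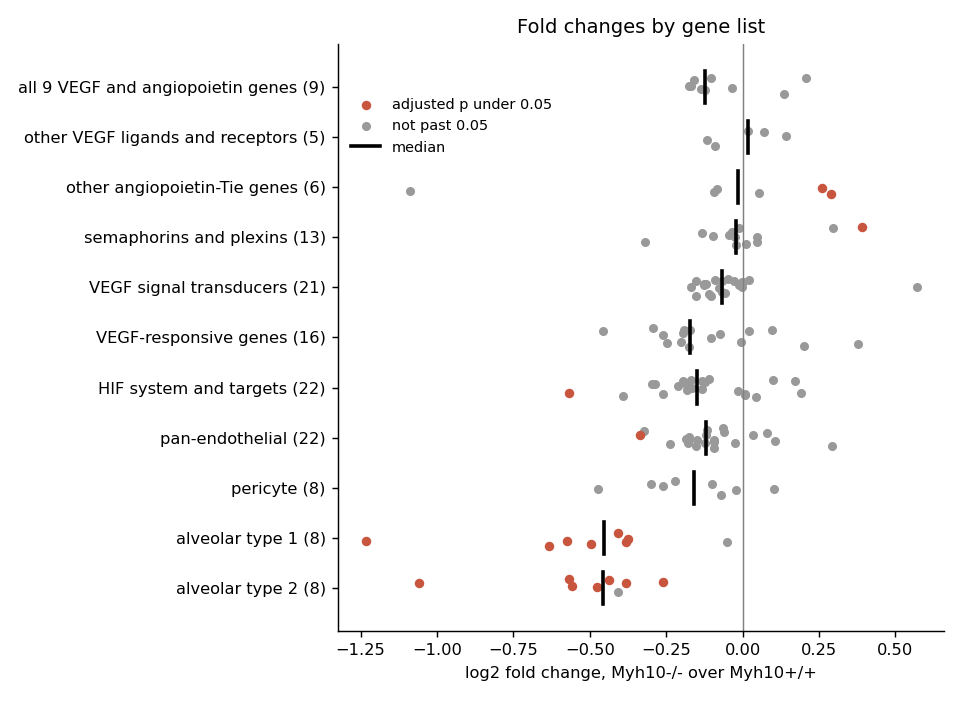
Log2 fold change of Myh10-/- over Myh10+/+ lungs for each tested gene of 11 gene lists (points, with the number of genes in brackets), red where the adjusted p was under 0.05 and grey otherwise, with the median of each list as a black bar and a vertical offset of the points for visibility only. The 9 VEGF and angiopoietin genes centre at -0.12, like the 22 pan-endothelial genes, while the alveolar type 1 and type 2 lists centre at -0.45 and -0.46 with 7 of 8 genes red in each.

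Since *Vegfa* is a target of the hypoxia-inducible factors (HIF), genes of that system were set beside it. Of 22 such genes, 1 passed, *Ankrd37*, a HIF target, which fell from 25.9 and 29.0 CPM to 18.7 and 18.3 CPM (log2 fold change -0.57, SE 0.080, adjusted p = 0.00897). The median of the 22 was -0.15, 16 were below 0, and 10 were at an unadjusted p under 0.05, all lower. Over all tested genes, 49.5% were below 0 and 9.02% were lower at that level. DESeq2 gave 2, *Ankrd37* and *Ndrg1*. *Hif1a* differed by 0.01 (adjusted p = 0.955). Several of these genes differed between the 2 *Myh10*+/+ lungs, and the summed level was 2218 and 2433 CPM in *Myh10*+/+ and 2128 and 2121 CPM in *Myh10*-/- lungs.

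Marker lists of other cell types in the lobe moved between the genotypes, and their part in the values of the 9 genes was not tested. Alveolar type 1 cells, an epithelial source of VEGF-A, had 7 of 8 markers that passed, all lower, with a median of -0.45. The summed level of the 8 was 3531 and 3408 CPM in *Myh10*+/+ and 2595 and 2940 CPM in *Myh10*-/- lungs, and among them were *Rtkn2* (-0.63, adjusted p = 0.00442), *Aqp5* (-1.23, adjusted p = 0.00897), *Ager* (-0.58, adjusted p = 0.00997) and *Hopx* (-0.41, adjusted p = 0.0394). Alveolar type 2 cells likewise had 7 of 8 markers that passed as lower, with a median of -0.46 and summed levels of 8869 and 8444 against 5862 and 6984 CPM. DESeq2 gave 4 of the type 1 and 5 of the type 2 markers, all lower. *Aqp5* and *Hopx* did not pass with DESeq2 (adjusted p = 0.0531 and 0.232) or with edgeR at robust = TRUE (0.237 and 0.0951). In both lists the summed level was lowest in *Myh10*-/- lung 1. The lowest p-values of the type 2 list were those of *Sftpd* (-1.06, adjusted p = 0.00442), *Sftpa1* (-0.57, adjusted p = 0.00592) and *Sftpb* (-0.48, adjusted p = 0.00961), while the first marker *Sftpc* differed by -0.41 (adjusted p = 0.173).

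Of 7 general epithelial genes, 2 passed as lower, *Krt8* (-0.33, adjusted p = 0.00984) and *Cdh1* (-0.30, adjusted p = 0.0178), with *Cdh1* at 0.0985 without *Myh10*+/+ lung 1, and *Epcam* differed by -0.04 (adjusted p = 0.738). Mesenchymal lists, which include the cells that make angiopoietin-1, held no gene that passed with edgeR or DESeq2. The 8 pericyte markers had a median of -0.16, with 4 at an unadjusted p under 0.05, all lower, and summed levels of 617.1 and 608.3 against 587.4 and 573.3 CPM, and *Pdgfrb* differed by -0.10 (adjusted p = 0.353). Of all tested genes, 9.02% were lower and 7.52% higher at an unadjusted p under 0.05. The 10 fibroblast genes had a median of -0.01, with 2 lower and 2 higher at that level, summed levels of 5938 and 5886 against 5899 and 5756 CPM, and *Pdgfra* at 0.08 (adjusted p = 0.468).

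Within the endothelium, 2 of 7 genes listed for the *Car4*-positive capillary cell passed as lower, *Car4* itself (2.84 and 2.99 against 0.755 and 0.932 CPM, log2 fold change -1.77, adjusted p = 0.00961) and *Emp2* (-0.39, adjusted p = 0.0311), which is also abundant in type 1 cells. The call of *Emp2* was lost without *Myh10*+/+ lung 1, *Myh10*+/+ lung 2 or *Myh10*-/- lung 1 (adjusted p between 0.0643 and 0.201). DESeq2 had no adjusted p for *Car4*. The median of that list was 0.0057. Neither the 6 genes of general capillary cells (median -0.08, with 1 lower and 1 higher at an unadjusted p under 0.05, *Gpihbp1* at -0.24 and adjusted p = 0.322) nor the 6 lymphatic genes (median 0.03, 0 at that level, *Prox1* at -0.02 and adjusted p = 0.957) held one that passed with edgeR or DESeq2. DESeq2 had an adjusted p for only 3 of the lymphatic genes.

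Heart muscle genes, carried by tissue around the pulmonary veins or by adhering heart, had 5 of 6 tested that passed as lower (a further listed gene had a mean below 5 counts), among them *Myh6* (-0.73, adjusted p = 0.0117), *Myl7* (-0.65, adjusted p = 0.0127) and *Ryr2* (-0.44, adjusted p = 0.0156), and a summed level of 234.6 and 294.1 against 187 and 171.6 CPM. Of 6 erythroid genes, 2 passed as lower, *Alas2* (-0.53, adjusted p = 0.0293) and *Hba-a2* (-0.41, adjusted p = 0.0475, with reads shared between near-identical globin copies), and *Hba-a1* differed by -0.38 (adjusted p = 0.074). Without *Myh10*+/+ lung 2 the calls of *Alas2* (adjusted p = 0.0757), *Hba-a2* (0.220), *Myl7* (0.0519) and, in the type 2 list, *Sftpb* (0.0808) were lost. Of 5 leukocyte genes, 1 passed as lower, *Lyz2* (-0.44, adjusted p = 0.0293), which also stands in the type 2 list, and *Ptprc* differed by -0.27 (adjusted p = 0.224). DESeq2 gave 6 of the heart muscle genes, and 0 of the 5 erythroid and 2 leukocyte genes for which it had an adjusted p. No list had a gene at 0 in every lung.

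The genes with the profile nearest to those of the 9 over the 4 lungs were sought among 10979 well-counted genes (mean of 250 counts or more), by the root mean square difference of centred log2 CPM. For *Vegfa* these were *Golm1* (0.0044) and *Tbc1d2* (0.0049), for *Kdr* *Rps4l* and *Ubash3b*, for *Flt1* *Fam65a* and *Ptgfrn*, for *Tek* *Mut* and *Zc3h7b*, for *Nrp1* *Os9* and *Kif1bp*, and for *Nrp2* *Samhd1* and *Msmo1*. The angiopoietins lay nearest to *Nsun7* and *RP23-15K13.2* (*Angpt1*) and to *4933421O10Rik* and *Rcbtb1* (*Angpt2*). With 4 lungs many profiles are alike, since between 343 genes (for *Angpt1*) and 2740 genes (for *Tek*) lay within 0.05, and none of the genes named here as nearest was a member of the 9.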

How the data were processed

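RNA from left lobes of E17 lungs, 2 Myh10+/+ and 2 Myh10-/-, was sequenced on stranded mRNA libraries, and the authors deposited raw counts of reads per gene in each lung. As the methods state, the authors trimmed single-end reads, aligned them to GRCm38 with STAR 2.4.0a and counted reads partly in exons with featureCounts 1.5.1, leaving out reads on several genes or regions, which lowers counts of overlapping genes. Whether the counting used strand is not given in the sources used here. The authors' own comparison used DESeq2 1.14.1 and was not used here.

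Genes whose mean count was 5 or more were tested with the quasi-likelihood functions glmQLFit (robust = FALSE) and glmQLFTest after TMM scaling (edgeR 4.0.16, run under R 4.3.3), with Benjamini-Hochberg adjustment over all 18763 genes. CPM used the TMM-scaled library totals. Levels per kb used the union of exons of GENCODE annotation on GRCm38, and windows of 75 bases were searched for shared sequence. The 9 genes and the gene lists were chosen with earlier results of these data known. Named genes are the 9, Myh10, genes of the 5 pathway lists that passed (or, where none did, the 2 with the lowest p), up to 3 that passed and the first gene of each other list, and the 2 nearest profiles of each of the 9 (those of Tie1 are not reported here). Total counts of 19116971 to 32055306 make counting error small, and the replicate lungs, which came from separate mice, differed by more than it (chi-square per degree of freedom 7.47 and 12.6), so the 2 lungs per genotype limit the precision. Both chi-square values include sex-linked genes such as Xist, which differed strongly between the 2 lungs of each genotype and raise them. Same-numbered lungs did not deviate together (correlation across genes -0.20), so the replicate number was a block only in an alternative. Other alternatives were DESeq2 size factors, library totals, no filter, filterByExpr, a minimum mean of 250 counts, leaving out chromosomes X, Y and MT, robust = TRUE, DESeq2 1.42.0, an adjusted p threshold of 0.1 and leaving out each lung. A block with crossed numbers was added after seeing the data. The test was also run on simulated counts with known changes, drawn without effects shared between lungs, and its outcome is not reported here.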

Additional observations from a re-analysis of the deposited data

How the results depend on the processing

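Of the 9 VEGF and angiopoietin genes, 0 passed in each of the fits that used the 4 lungs, with edgeR or DESeq2, and no fold change reversed under any of 14 alternatives. With 4 lungs the log2 fold change of Vegfa lay between -0.17 and -0.15 and that of Angpt1 between 0.20 and 0.23. The lowest adjusted p-value of any of the 9 with 4 lungs was 0.0501, for Tie1. Leaving out 1 lung gave log2 fold changes between -0.22 and -0.12 for Vegfa, between 0.11 and 0.30 for Angpt1 and between -0.21 and -0.10 for Tie1. In these fits the lone lung of a genotype is assumed to vary like the others. Vegfa, Angpt1 and Tie1 each passed in a fit of this kind, which for that reason is not counted as a call. Of the 61 further pathway genes, 3 passed in the main test and 7 with no filter on low counts. The replicate block gave 5, adding Sema3b (adjusted p = 0.0287) and Ppp3ca (adjusted p = 0.0424) as lower. Leaving out 1 lung gave between 1 (Nid2, lower, without Myh10+/+ lung 2) and 10 (without Myh10-/- lung 2).

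Over all genes, 308 passed in the main test, 81.8% of them lower, and 346 with library totals, 67.6% of them lower. The count was 1162 with no filter, 474 with robust = TRUE, 710 with the replicate block and 696 at an adjusted p threshold of 0.1. Leaving out 1 lung gave between 191 (without Myh10+/+ lung 2) and 1826 (without Myh10-/- lung 2). Lungs with the same number deviated in opposite directions (-0.20 over all genes and -0.74 over genes averaging 250 counts or more), and a block with crossed numbers, chosen after seeing the data, which pairs the lungs with high Xist and those with low Xist, gave 415 genes in all, 3 of the 61 and 0 of the 9. The cause of these differences between settings was not tested. With 2 lungs per genotype the full width of the 95% interval of each of the 9 genes is larger than its difference. The intervals, which are not adjusted for the number of genes tested, exclude 0 for Vegfa, Angpt1, Kdr, Tie1, Nrp1 and Nrp2.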
